A study of Mus musculus with 2 samples.

Results

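The miRNA genes Mir107, Mir103-2, Mir103-1 and Mir33 each lie inside an intron of a gene of central metabolism, and all 4 were found by their Ensembl identifiers among the 1973 genes counted in embryonic mouse stomach. They were chosen by name for their host genes, and no level or test of these libraries forms part of the rule. Earlier results of these data were known when the choice was made. Mir107 was by far the most abundant of them at 903 ± 27.1 counts-per-million (CPM, counts-per-million of the reads assigned to genes in the sense direction; SD, n = 2 libraries). Mir33 followed at 72.3 ± 20.2 CPM, Mir103-2 at 41.7 ± 2.66 CPM and Mir103-1 at 2.24 ± 1.22 CPM. The main mature product of both Mir103 genes is the same molecule, so a full read of it has more than 1 place to map, and their counts may not hold such reads.

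The host genes give this group its name. Pank1, Pank2 and Pank3 encode pantothenate kinases, which catalyse the first step of coenzyme A synthesis, and each carries a miRNA of the miR-103/107 family in an intron. Srebf2 encodes SREBP2, the transcription factor that switches on cholesterol synthesis and uptake, and its intron carries Mir33. In mice, miR-33 is known to repress the cholesterol exporter Abca1, and miR-103 and miR-107 are known to reduce insulin sensitivity through caveolin-1 in adipocytes.

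Small RNA below 30 nucleotides by its size label was sequenced from 1 group, stomach of B6NCrl mouse embryos at day 16.5 of gestation. There were 2 biological replicates, both pools of male and female embryos with no genetic change or treatment named. Replicate 2 was pooled from 41 embryos, while the labels give no number for replicate 1, and both carry the same donor label, so the spread between them may be partly technical. No other tissue, age or treatment was present, so the comparisons are between genes and between these libraries.

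Sequencing gave 15746238 reads in replicate 1, with 7734578 in the sense direction of a gene, and 15958656 reads in replicate 2, with 7983714. A count of 0 allows up to 3 reads, or 0.388 CPM in replicate 1 and 0.376 CPM in replicate 2. Markers of stomach tissue were present. The summed level of the 5 epithelial genes of the miR-200 family was 50884 and 51088 CPM in replicates 1 and 2, and the smooth muscle genes Mir143 and Mir145a summed to 202084 and 197398 CPM. All 4 gastrointestinal epithelial genes, Mir192, Mir194-1, Mir194-2 and Mir215, reached 10 CPM in both libraries. The 3 neuronal genes of miR-124a were at 0, but they are copies of each other and a 0 there does not show absence.

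The 3 genes of the Pank introns occupied the same place in their hosts. Mir107 lies on the minus strand in intron 5 of 6 of Pank1, 326 bases after the upstream exon. Mir103-2 lies in intron 5 of 6 of Pank2, 454 bases after the upstream exon, and Mir103-1 in intron 5 of 6 of Pank3, 688 bases after it. Mir33 lies in intron 16 of 18 of Srebf2, 335 bases after the upstream exon. Introns were counted along the host's principal transcript in GENCODE M21. No other gene of the count tables lies in these 4 hosts on the same strand, and no annotated gene overlaps a member on the opposite strand.

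The hairpins are shown because the stretches they share set which reads could be assigned to a gene. Capitals mark every base that lies in a run of at least 18 bases also found in another of the 4 hairpins (RefSeq sequences on GRCm38.p6, 5′ to 3′).
Mir107, chr19:34820687-34820773, minus strand: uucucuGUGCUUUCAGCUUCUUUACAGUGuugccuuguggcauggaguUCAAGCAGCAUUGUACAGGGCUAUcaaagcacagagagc
Mir103-2, chr2:131288052-131288137, plus strand: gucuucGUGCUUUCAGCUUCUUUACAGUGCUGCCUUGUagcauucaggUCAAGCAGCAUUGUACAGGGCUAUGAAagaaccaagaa
Mir103-1, chr11:35782396-35782481, plus strand: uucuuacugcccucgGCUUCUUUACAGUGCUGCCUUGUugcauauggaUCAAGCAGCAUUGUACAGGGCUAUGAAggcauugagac
Mir33, chr15:82198122-82198190, plus strand: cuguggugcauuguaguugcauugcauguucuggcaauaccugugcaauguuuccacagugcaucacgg
Of the 86 bases of Mir103-2, 59 lie in such a run, against 50 of the 86 bases of Mir103-1 and 47 of the 87 bases of Mir107. Mir33 shares no such run, and the longest stretch it has in common with any of the other hairpins is 8 bases. The longest stretch common to Mir103-2 and Mir103-1 is 27 bases around the 3p arm, and each of them shares 24 bases with Mir107 there.

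The mature arms are shown with the seed, bases 2 to 8, in capitals, since the seed is the part that pairs with target transcripts.
miR-107-3p: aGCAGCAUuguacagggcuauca
miR-103-3p, from Mir103-2 and from Mir103-1: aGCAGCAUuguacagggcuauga
miR-107-5p: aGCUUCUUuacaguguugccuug
miR-103-2-5p: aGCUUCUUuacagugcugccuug
miR-103-1-5p: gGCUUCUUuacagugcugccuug
miR-33-5p: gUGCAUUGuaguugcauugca
miR-33-3p: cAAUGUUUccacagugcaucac
All 3 Pank-intron genes share 1 seed on the 3p arm and another on the 5p arm, so a difference in their levels is not a difference in seed. Counted from 1 at the 5′ end, miR-103-3p and miR-107-3p differ by G22C, with the base of miR-103-3p first. On the 5p arm miR-103-1-5p differs from miR-103-2-5p by G1A, and miR-103-2-5p differs from miR-107-5p by C16U. Among the 1738 mature entries of the RefSeq table, no gene outside the 4 carries any of these 4 seeds at bases 2 to 8, nor a mature sequence of the same length within 1 substitution of theirs.

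Possible reads of a given length were then cut from the reference sequences and searched for exact matches in 1005 hairpins, on both strands. No sequenced read was placed in this search. A read that starts at the first base of miR-107-3p and runs for 18 to 21 bases matched 3 hairpins, those of Mir107, Mir103-2 and Mir103-1, and at 22 or 23 bases it matched Mir107 alone. A read of miR-103-3p matched the same 3 hairpins up to 21 bases and both Mir103 hairpins at 22 and 23 bases, so that no length up to the full arm points to 1 gene. The 5p arms of all 3 genes and both arms of Mir33 matched 1 hairpin at every length from 18 bases. With starts shifted by up to 2 bases and lengths of 18 to 26 bases, 10 of 45 possible reads of the 3p arm were particular to Mir103-2 and 10 of 45 to Mir103-1, against 25 of 45 for Mir107. On the 5p arm the counts were 34, 34 and 45 of 45. For reads that start at the first base, a search in 2201 miRNA genes and 139565 other spliced transcripts of GENCODE M21 added no match. Reads with shifted starts were searched in the 1005 hairpins only, and the rest of the genome was not searched.

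**Figure D1:**
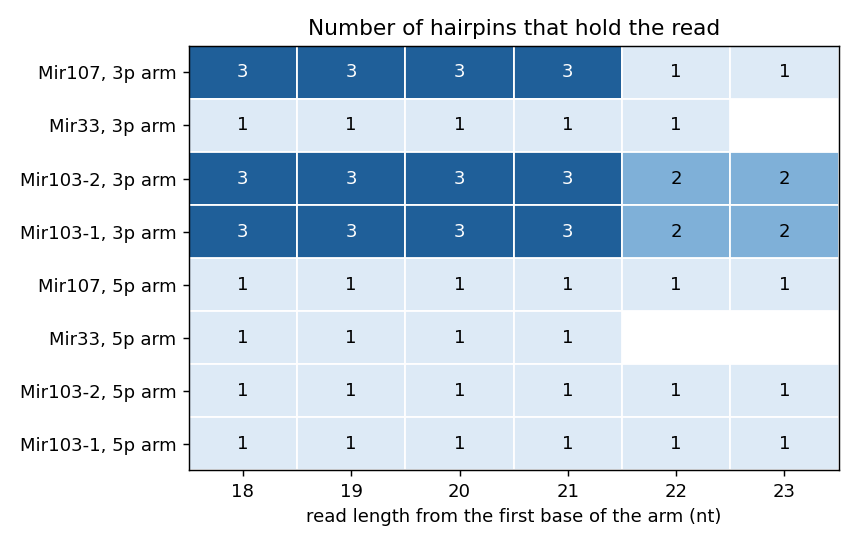
Number of the 1005 RefSeq mouse hairpins that hold an exact match to a possible read starting at the first base of each mature arm, by read length in nucleotides. Possible reads were cut from the reference sequence, and blank cells lie beyond the end of the arm. The 3p rows of Mir103-2 and Mir103-1 stay at 2 or 3 hairpins at every length, while the 3p row of Mir107 drops to 1 at 22 nucleotides and all other rows are at 1.

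The deposited tables count reads with more than 1 place under a separate total, 25.1% of the reads of the first library and 25.2% of the second, and so presumably under no gene. If so, the levels of Mir103-2 and Mir103-1 are levels of reads with 1 place only, and the amount of miR-103-3p in the stomach is not known from these counts. The count of Mir107 would likewise lack 3p reads that start at the first base and stop short of base 22. How much of the gap between Mir107 and the Mir103 genes this makes up was not tested.

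Mir107 had 6837 reads in replicate 1 and 7363 in replicate 2, which is 884 CPM (exact Poisson 95% interval 863 to 905) and 922 CPM (901 to 944). It made up 89.7% of the reads of the 4 genes in replicate 1 and 87.5% in replicate 2. Mir33 had 449 and 691 reads, or 58.1 CPM (52.8 to 63.7) in replicate 1 and 86.6 CPM (80.2 to 93.3) in replicate 2. These intervals cover counting error only, and those of Mir33 do not meet, so its libraries differed by more than counting.

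Mir103-2 had 308 and 348 reads, or 39.8 CPM (35.5 to 44.5) in replicate 1 and 43.6 CPM (39.1 to 48.4) in replicate 2. Mir103-1 had 24 and 11 reads, or 3.10 CPM (1.99 to 4.62) and 1.38 CPM (0.688 to 2.47). Both libraries gave Mir103-1 more reads than the floor of 3, and its intervals are the widest of the 4 genes relative to the level. No member had a read on the opposite strand in either library. Together the 4 genes held 7618 reads in replicate 1 and 8413 in replicate 2, which is 0.102% ± 0.00487 of the sense-assigned reads (SD, n = 2).

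**Figure D2:**
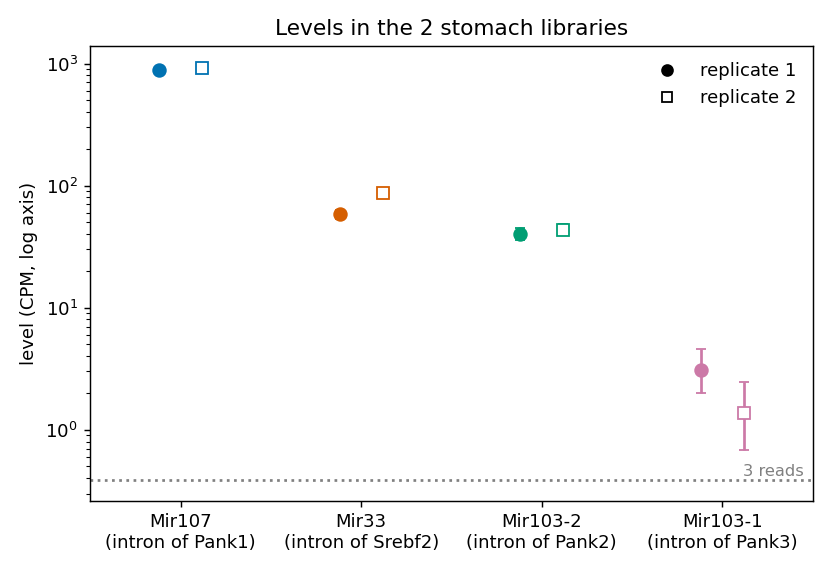
Level of each gene in CPM on a log axis, with replicate 1 as filled circles and replicate 2 as open squares; bars are exact Poisson 95% intervals of the count, smaller than the symbol for the higher genes, and the dotted line marks 3 reads. Mir107 sits at 884 and 922 CPM, Mir33 and Mir103-2 between 39.8 and 86.6 CPM, and Mir103-1 at 3.10 and 1.38 CPM.

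The order of the 4 genes was the same in both libraries. Mir107 exceeded Mir33 15.2-fold in replicate 1 (exact 95% interval of the count ratio 13.8 to 16.8) and 10.6-fold in replicate 2 (9.85 to 11.5). It exceeded Mir103-2 22.2-fold (19.8 to 25.0) and 21.1-fold (19.0 to 23.6), a ratio that the libraries gave alike. Mir33 exceeded Mir103-2 by less, 1.46-fold in replicate 1 (1.26 to 1.69) and 1.98-fold in replicate 2 (1.74 to 2.27). Mir103-2 exceeded Mir103-1 12.6-fold (8.46 to 20.3) and 30.3-fold (17.5 to 64.0). With 2 libraries no permutation test can pass 0.05, and these ratios were not tested. The hairpins are 69 to 87 bases long, and per 100 bases of hairpin the order was unchanged, at 1038 CPM for Mir107, 105 for Mir33, 48.5 for Mir103-2 and 2.61 for Mir103-1.

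Among the 751 genes with a sense read, Mir107 ranked 98, Mir33 208, Mir103-2 230 and Mir103-1 358 by mean CPM. Mir107, Mir33 and Mir103-2 reached 10 CPM in both libraries, as did 277 of all 1973 genes, and Mir103-1 did not. The genes nearest to Mir107 in level, by Euclidean distance of log2(CPM + 1) over the 2 libraries, were Mir181a-1 at 847 and 883 CPM in replicates 1 and 2, Mir210 at 831 and 860 CPM, and Mir301, in an intron of Ska2, at 924 and 808 CPM. Nearest to Mir33 were Mir5099 at 71.6 CPM in both libraries, Mir29c at 62.1 and 63.4 CPM, and Mir412 at 65.7 and 64.5 CPM. These distances, from 0.40 to 0.45, were larger than the 0.09 to 0.21 found around the other members, and Mir33 was higher in replicate 2 while its 3 neighbours differed little between the libraries. Nearest to Mir103-2 were Mir147, Mir218-2 and Mir19a, and nearest to Mir103-1 were Mir1191, Mir3075 and Mir3060.

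**Figure D3:**
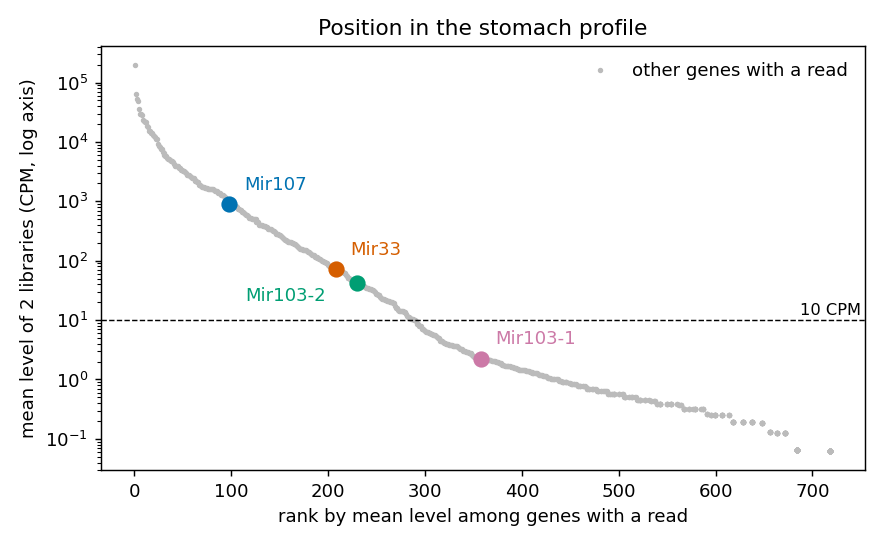
Mean CPM of the 2 libraries on a log axis against rank for the 751 genes with a sense read, each a grey point, with the 4 members in colour and a dashed line at 10 CPM. Mir107 stands at rank 98, Mir33 and Mir103-2 at 208 and 230, and Mir103-1 below the line at rank 358.

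The counts of the 2 libraries were then compared with each other. Ratios are replicate 1 over replicate 2 after scaling by trimmed mean of M values (TMM), with 0.5 added to each count. Counts of the 289 genes that averaged at least 10 CPM were tested by an exact binomial test, two-sided, with Benjamini-Hochberg adjustment, and a call needed an adjusted p under 0.05 and a 2-fold difference. The test compares these libraries and not conditions, and it sets their difference against counting error alone. Of all tested genes 7.96% were called, 7.27% as higher in replicate 1 and 0.692% as lower. Of the 3 members tested 0 were called in either direction, although 3 of 3 had an unadjusted p under 0.05 by the same exact test, as had 222 of the 289 genes. Mir103-1 was too low to be tested.

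Mir33 differed most among the members tested. Its ratio was 0.591 (log2 −0.76, exact 95% interval −0.93 to −0.58), with an adjusted p of 5.00e-18 by the exact binomial test, and it was lower in replicate 1. Of the 289 genes, 5 had a lower ratio, while 231 lay within 1.5-fold. The log2 ratios of the 289 genes had an SD of 0.64, a spread that the p-values do not carry. Mir103-2 had a ratio of 0.805 (log2 −0.31, −0.54 to −0.09) and an adjusted p of 0.00870 by the same exact test, which became 0.284 when libraries were scaled by total assigned reads. Mir107 had a ratio of 0.845 (log2 −0.24, −0.29 to −0.20) and an adjusted p of 2.97e-23 by the same exact test. Mir103-1 had a ratio of 1.94, but its log2 interval of −0.10 to 2.17 includes 0. With no minimum fold 76.1% of the 289 genes passed the test, 37.7% as lower in replicate 1, and all 3 members were among the lower ones.

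Some markers of other cell types also differed between the libraries, and others differed little. Mir126a of endothelium stood at 29028.5 and 29049.3 CPM in replicates 1 and 2, and Mir223 of myeloid cells at 1240 and 1166 CPM. The skeletal muscle genes Mir206, Mir133b and Mir1a-1, of which only Mir206 reached 10 CPM in both libraries, had a summed level of 3209 and 103 CPM in replicates 1 and 2. Mir206 and Mir133b were called as higher in replicate 1, at log2 ratios of 4.81 and 3.10. Mir122 of liver stood at 1821 and 1210 CPM, and its log2 ratio of 0.41 was not called. Mir451a, the only gene of the erythroid list, stood at 1086 and 418 CPM, while its genomic neighbour Mir144, also known from erythroid cells, stood at 139 and 159 CPM. Mir451a was called as higher in replicate 1, at a log2 ratio of 1.20, and Mir144 was not called. The stratified epithelium list of Mir203 and Mir205 had a summed level of 28558 and 38234 CPM. Of these, Mir203 was higher in replicate 2, as Mir33 was, at 17200 and 27343 CPM, and Mir205 stood at 11359 and 10891 CPM. These levels are not scaled by TMM. After TMM scaling both were lower in replicate 1, with log2 ratios of −0.85 for Mir203 and −0.12 for Mir205. The part of any of these markers in the ratio of Mir33 was not tested.

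**Figure D4:**
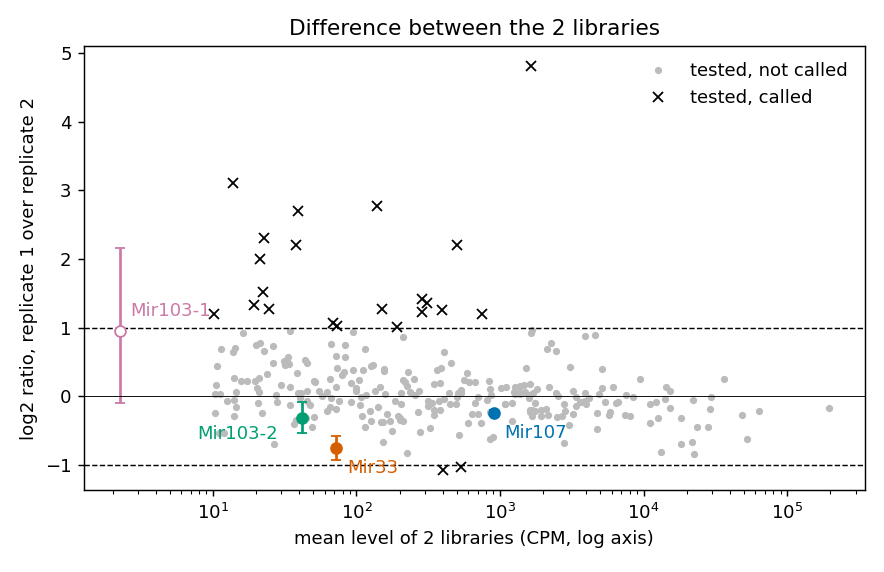
Log2 ratio of replicate 1 over replicate 2 against mean CPM (log axis) for the 289 genes tested, with called genes as crosses, the members in colour with exact 95% intervals, and dashed lines at 2-fold. Mir107, Mir33 and Mir103-2 lie below 0 and inside the lines, and Mir103-1, drawn open because it was not tested, has an interval of −0.10 to 2.17.

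An intron of a protein-coding gene on the same strand held 658 of the 1973 genes, of which 340 had a read. At 10 CPM or more in both libraries were 96 of these, or 14.6%, a share close to that of the whole table, where 277 of 1973 genes did so. Among the 340, Mir107 stood 35th by mean CPM, Mir33 67th, Mir103-2 77th and Mir103-1 132nd. The highest was Mirlet7g in Wdr82 at 52768 ± 11516 CPM (SD, n = 2), followed by Mir335 in Mest, Mir26b in Ctdsp1, Mir429 in Ttll10 and Mir23b in 2010111I01Rik. Of 99 intronic genes tested between the libraries, 4 were called as higher in replicate 1 and 1 as lower, which is 5.05% against 7.96% of all tested genes, and 0 of these were members.

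A list of 25 miRNA genes known from the handling of cholesterol, fatty acids or glucose put the members beside others with such roles. A row was found for 24 of them, and each of the 24 reached 10 CPM in both libraries; Mir378a is not analysed here. Of all 1973 genes, 277 reached 10 CPM in both libraries. The list was chosen with earlier results of these data known, so it is not an unpicked set. The median of the 24 was 553 CPM, against 1.91 CPM over all genes with a read, and this gap may come from the choice. Mir107 was above that median with 11 of the 24 higher, while 18 were higher than Mir33, 20 higher than Mir103-2 and all 24 higher than Mir103-1. The highest of the list were Mir143, a smooth muscle gene also studied in adipocytes, at 195813 ± 1350 CPM, and Mir375 of endocrine cells at 11125 ± 1179 CPM. Mir106b, which is known to repress Abca1 as miR-33 does, stood at 4773 ± 161 CPM, Mir145a at 3928 ± 1963 CPM and Mir182 at 3206 ± 113 CPM. Mir144, also known to repress Abca1, stood at 149 ± 14.7 CPM, above Mir33 in both libraries. Mir758, another repressor of Abca1, had 280 reads in replicate 1 and 105 in replicate 2. It was the only gene of the 24 called between the libraries, 2.42-fold higher in replicate 1 (exact binomial test, adjusted p 1.14e-15). That is 4.17% of the list, against 7.96% of all tested genes.

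**Figure D5:**
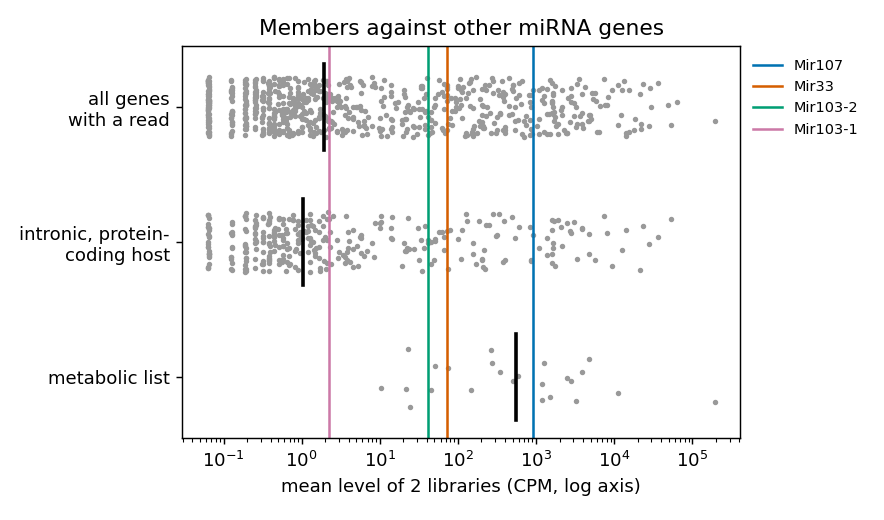
Mean CPM of the 2 libraries on a log axis for all 751 genes with a read, the 340 intronic genes with a read and the 24 genes of the metabolic list, each gene a grey point and each median a black bar, with the members as coloured lines. The line of Mir107 lies to the right of the metabolic median of 553 CPM, those of Mir33 and Mir103-2 to the left of it, and that of Mir103-1 near the median of all genes with a read.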

How the data were processed

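The authors deposited, per library, tables of raw counts over 1973 genes with 4 summary totals, aligned to mm10 and counted on GENCODE M4 per the file headers. Each gene has a count without regard to strand and 1 for each strand; the strand with the larger total was used. Which aligner, counter and trimming were used is not given in the sources used here. The summary totals stayed out of library sizes; of all reads, unmapped ones were 21.3% in replicate 1 and 20.3% in replicate 2, multiply placed ones 25.1% and 25.2%, and those outside any gene 2.81% and 3.11%. Counts belong to hairpins, so the arms were not told apart.

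Symbols, coordinates and hosts came from GENCODE M21 on GRCm38, the assembly mm10 names, matching 1894 identifiers. Sequences came from RefSeq (GRCm38.p6), which matched all 4 members; hairpins were folded with ViennaRNA 2.7.2. TMM used edgeR 4.0.16 in R 4.3.3 over genes at a mean of 10 CPM, and DESeq2 1.42.0 gave other size factors. edgeR's quasi-likelihood test could not be fitted with 1 library a side, so the exact binomial test in scipy 1.17.1 (Python 3.11.15) was used. It was run on simulated counts that held counting error alone. That run cannot show how the test behaves with the wider spread between real libraries. The p-values of the binomial test carry no spread among animals. No molecular identifiers are named, so that intervals and floors hold for counting error alone.

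Members, lists and rules were chosen with earlier results of these data known. Named genes were the members, the 3 nearest in level, the 5 highest of the intronic and metabolic lists, and the markers; Mir144 and Mir758 were named after their values were seen.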

Additional observations from a re-analysis of the deposited data

Results flagged for a closer look

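The total of reads placed in several positions stands apart from the gene counts in the deposited tables and was not used for the levels above. It stood far over the 3 counts that a count of 0 allows. It was 3944541 reads in replicate 1 and 4015646 reads in replicate 2. That is 518 times the reads counted over all 4 members in replicate 1 and 477 times in replicate 2. This ratio sets a total of the whole library against 4 genes, and does not measure reads missing from them. All genes together held 7734578 sense-assigned reads in replicate 1 and 7983714 in replicate 2. Which genes the reads placed in several positions came from is not given by the tables.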

How the results depend on the processing

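None of the recomputed log2 ratios changed sign, while levels and counts have no sign to change. Of 89 recomputed values 76 stayed on the same side of a call, within 1 SD for a level or a ratio between members, or within 1.5 times for a count. The 76 include the values that leave out 1 library. With 2 libraries such a value lies within 1 SD of the mean whatever the data, so it is no check. Among these 76, the genes of the metabolic list numbered 17 at 100 CPM against 24 at 10 CPM, and Mir103-2 remained uncalled while its exact binomial adjusted p was 0.284 with total assigned reads against 0.00870. With all reads as the denominator, the mean level was 448 CPM for Mir107, 35.9 for Mir33, 20.7 for Mir103-2 and 505 for the 4 genes together, since this denominator is about 2 times as large. Mir103-1 fell likewise, to 1.11 CPM from 2.24 CPM. It counts among the 76 only because its SD is as wide as 1.22 CPM. With counts that ignore strand Mir107 stood at 875 CPM. With no minimum fold all 3 tested members passed the exact binomial test at their log2 ratios of −0.24 for Mir107, −0.76 for Mir33 and −0.31 for Mir103-2. The number of genes called between the libraries was 55 with no filter on low counts (33 higher and 22 lower in replicate 1, against 21 and 2 with the filter), 58 at 1.5-fold and 220 with no minimum fold, against 23. Intronic genes numbered 158 at 1 CPM and 62 at 100 CPM. Over the tested genes the log2 ratio had a median of 0.02 with TMM and 0.21 with total assigned reads; with the second scaling Mir33 stood at −0.58, Mir107 at −0.06 and Mir103-2 at −0.13. Leaving out 1 library leaves a value with no spread. Mir103-1 then ranged over 1.38 to 3.10 CPM, and its ratio to Mir103-2 moved by over 1.5 times, with Mir103-2 higher by 3.65 on the log2 scale in replicate 1 alone and 4.92 in replicate 2 alone. No paired analysis was possible because the series has a single group. Depth limits Mir103-1 most, at 24 and 11 reads.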

Other observations

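The mature table held 33 pairs of genes that share an arm with each other and with no further gene, both with a row in the count tables. In 21 pairs the lower gene reached a mean of 1 CPM, and the ratio of the higher to the lower had a median of 2.67 over these pairs, with a range of 1.04 to 49.9. Mir103-2 over Mir103-1 gave 18.6 by mean CPM, and 3 of these 21 pairs lay above it. These were Mir181b-2 over Mir181b-1 at 49.9, Mir92-1 over Mir92-2 at 34.1, and Mir181a-1 over Mir181a-2. Outside the 21, with the lower gene under 1 CPM, Mir196a-2 over Mir196a-1 at 23.9 and Mir365-2 over Mir365-1 at 19.7 were also above. Whether reads with more than 1 place are missing from these counts was not tested.

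The hairpins of the members had GC contents of 47.1% for Mir107, 47.8% for Mir33, 45.3% for Mir103-2 and 47.7% for Mir103-1, against a median of 51.7% over 1005 hairpins. The predicted folding energy per base was −0.474 kcal/mol for Mir107, −0.467 for Mir33, −0.370 for Mir103-2 and −0.416 for Mir103-1, against a median of −0.406, so that Mir103-2 was the only member less stable than the median hairpin.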
